A study of Nicotiana tabacum with 39 samples.

Results

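The comparison described here sets young tobacco leaves harvested 6720 min after a return to light, which is 4 days and 16 h, against leaves that had received no dark treatment. It rests on 6 of the 39 libraries of the series, namely the 3 libraries titled with 6720 minutes and the 3 titled as control, and all transcripts of the deposited count tables were used. The 3 libraries taken at the end of extended darkness (0 min) served to tell differences that were already present in darkness from those that were not. Leaves at 6720 min and leaves at the end of darkness came from whole plants of Nicotiana tabacum that had spent an extended period in the dark, and control leaves came from plants of the same species grown on soil in long days without it. Each library pooled tissue from the middle of 2 young leaves per plant over 3 plants, and p-values therefore measure how such pools vary. Plants were near maturity, and the length of the dark period, their exact age and the clock time of the control harvest were not stated. Leaves at 6720 min were harvested days after the end of the dark treatment, and earlier treatment, leaf age and time of day cannot be told apart in any difference from control. In these bulk pools, fewer cells of a type and less RNA per cell cannot be told apart either.

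Flowering plants can complete chlorophyll synthesis only in light, and leaf tissue formed in darkness therefore holds etioplasts, plastids with a lattice-like inner membrane body in place of thylakoids. On illumination, photoreceptors such as the phytochromes and cryptochromes release light-dependent genes from repression, and the etioplasts become chloroplasts. After this greening a young leaf goes on expanding and maturing, and its transcript levels go on moving with age and with the daily cycle. The deposited tables name transcripts by NCBI GI number only, and none of the 53725 identifiers (0 matches) occurs in the RefSeq gene table used here (79372 genes). No gene, pathway or cell type marker could therefore be named, the labelled tissue could not be checked against marker genes, and the results are given for classes of transcripts and for 4 transcripts by identifier.

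Library totals were 19160583, 19765154 and 24613789 counts at 6720 min, from 17762323 to 19723283 at the end of darkness, and 22967639, 22799716 and 34679672 in control. A count was recorded for 47480 ± 21.7 transcripts at 6720 min and 47440 ± 648 in control (SD, n = 3 each). The 100 most abundant transcripts of each library held 22.7%, 22.5% and 26.7% of its counts at 6720 min, against 16.4%, 21.7% and 19.6% in control. The ranges did not overlap, and the exact two-sided permutation test gave p = 0.1, the smallest value that 3 against 3 libraries allow. The 6720 min library of replicate 2 lay nearest to control, with Pearson correlations of log2 CPM of 0.928 to 0.949 with the 3 control libraries, where the other two 6720 min libraries had 0.897 to 0.937.

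At 6720 min, 8144 transcripts were higher (19.3%) and 7729 lower (18.3%) than in control, together 37.6% of the 42181 tested (edgeR quasi-likelihood test with Benjamini-Hochberg adjustment over all tested transcripts, adjusted p below 0.05). In 14796 of these 15873 transcripts (93.2%) the CPM of the 3 libraries at 6720 min did not overlap those of the 3 control libraries, against 47.2% of all tested transcripts. A difference of at least 2-fold was found for 3812 of the higher and 3211 of the lower transcripts, which are 9.04% and 7.61%, or 16.6%, of those tested. Differences of at least 8-fold were found for 292 higher and 227 lower transcripts, and of at least 32-fold for 32 and 23. The fitted median over all tested transcripts was 0.04 on the log2 scale. The scaling used (TMM) centres such differences, and CPM are relative to the library total. This median therefore does not show whether the total RNA level moved. The near balance of rises and falls has no firm side. Rises made up 51.3% of the calls, 47% without a filter on low counts (7257 higher, 8178 lower), and 45.7% to 47.6% when any 1 library at 6720 min or in control was left out.

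The count of calls depended on which libraries entered. It was 8288 with replicate 1 left out of all groups, 9201 with replicate 3 left out and 15698 with replicate 2 left out. When each of the 6 libraries at 6720 min and in control was left out singly, 9530 transcripts (60.0% of the 15873) kept their call and direction in all 6 fits, with 4276 of the 8144 higher and 5254 of the 7729 lower ones among them. None (0) was called in the opposite direction in any of these fits. The call was lost for 4273 transcripts without replicate 1 at 6720 min and for 3885 without control replicate 3, the 2 highest such counts.

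Rises and falls differed in abundance. Among the quartile of tested transcripts with the lowest mean level over all 39 libraries (median 0.742 CPM) 1839 were higher and 807 lower at 6720 min. In the quartile with the highest mean level (median 37.3 CPM) the balance was turned, with 1874 higher and 3204 lower. The share called was 25.1% in the lowest and 48.2% in the highest quartile. The median absolute difference among called transcripts was 1.53 in the lowest and 0.72 in the highest quartile (log2), and the part of depth in these counts was not tested. The quartiles include the libraries compared here. A transcript can pass the filter through 6720 min alone, and one of low level has little room to be called lower. The part of this in the balance of rises and falls was not tested either. Transcripts seen in one group alone were few. With a level of at least 1 CPM in all 3 libraries of one group and no count in the 3 of the other, 0 transcripts were found at 6720 min alone and 2 in control alone. These 2, picked out after their values were seen, were at least 40.9-fold and 38.0-fold lower at 6720 min, taking a floor of 3 counts per library, and stood at 3.98 and 0.061 CPM when darkness ended.

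The level at the end of darkness divided the 15873 transcripts into classes. Of those tested, 21022 differed between 6720 min and the end of darkness (49.8%, with 24% higher and 25.8% lower at 6720 min), and 20927 between the end of darkness and control (49.6%, with 25.6% higher and 24% lower in darkness, edgeR). A rise or fall was counted as new where the end of darkness had not been called against control and 6720 min was called against the end of darkness in the same direction as against control. There were 2648 new rises and 2322 new falls, or 16.7% and 14.6% of the calls at 6720 min. Without replicate 1 of all groups these were 1460 and 1497, and without replicate 3 they were 1730 and 1560. A further 3233 transcripts were higher than control both in darkness and at 6720 min, and 3529 were lower at both times. Transcripts on the opposite side of control at the 2 times numbered 1377 that were lower in darkness and higher at 6720 min, and 1126 that were higher in darkness and lower at 6720 min. For the remaining 886 higher and 752 lower transcripts neither the dark level nor the step out of it was called, and they were left unresolved. The contrasts with control share its 3 libraries, so an error in control moves a transcript in both, and the counts follow from the rule. They are not an independent overlap.

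**Figure D1:**
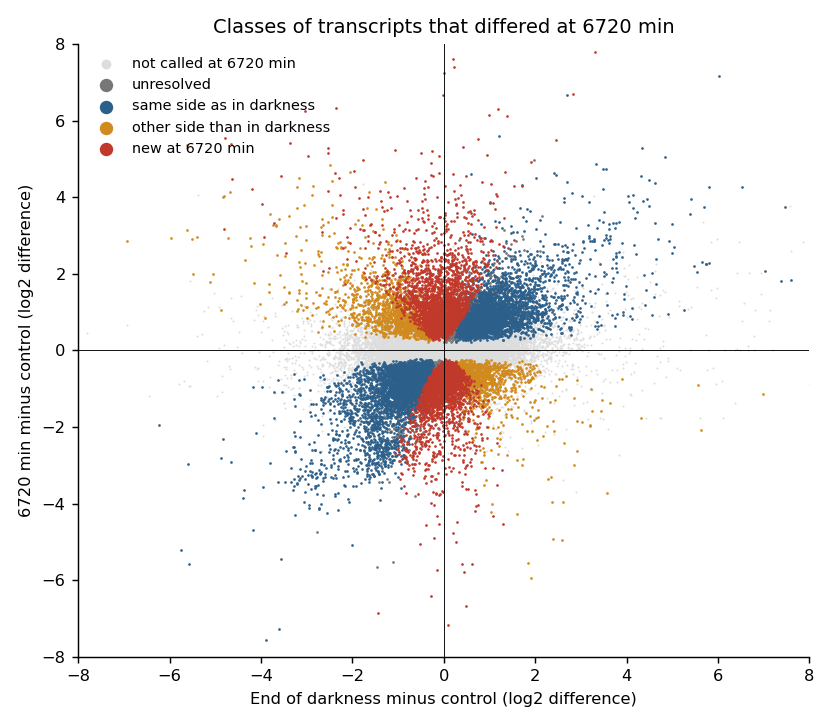
Each point is 1 tested transcript, with its fitted log2 difference of the end of darkness from control on the horizontal axis and of 6720 min from control on the vertical axis, coloured by class; 16 points lie outside the axes. The 2648 new rises and 2322 new falls lie along the vertical axis, the 3233 and 3529 transcripts that differed on the same side at both times fill the upper right and lower left, and the 1377 and 1126 crossed ones the other corners.

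Large rises were divided unevenly among the classes. At least 2-fold rises made up 58.8% of the new rises, against 42.0% of the transcripts that were higher in darkness too and 44.6% of those that crossed to higher. For falls, new ones and those shared with darkness were near equal. At least 2-fold falls made up 45.95% and 46.67% of these, and 22.11% of the transcripts that crossed to lower. Differences were larger at low abundance, as given above, and the part of abundance in these shares was not tested. Of the 292 transcripts that rose at least 8-fold, 171 were new, 77 had also been higher in darkness and 41 had crossed. Of the 227 that fell at least 8-fold, 76 were new, 130 had also been lower in darkness and 14 had crossed. These classes held 2322, 3529 and 1126 transcripts. Of the 32 that rose at least 32-fold, 25 were new. These fold counts carry no CPM minimum. The 25 did not meet the naming rule, under which the largest new rise was 4.54 (log2). Among transcripts that met the CPM minimums of the naming rule, the largest rises shared with darkness (5.05, 4.75, 4.75 and 4.61, log2) exceeded the largest new rise (4.54). The last of these (4.61) and the largest new rise had near-equal means at 6720 min, 108.6 and 104.2 CPM. Their dark levels, 0.59 and 0.49 above control (log2), fell on different sides of the rule. The 2 rises of 4.75 also had near-equal means, 67.1 and 63.2 CPM, so this order does not set the classes apart. New rises were of lower abundance than new falls, with medians of 4.16 and 12.5 CPM over the 30 libraries of the other groups, and 5.53 CPM over all tested transcripts. Those 30 libraries were in none of the contrasts that set the classes, but they entered the filter, the scaling and the estimate of spread. The filter can also admit a transcript through its level at 6720 min alone, while a fall needs a level in control to fall from. The part of this in the difference between the medians was not tested. Together the new rises held 8.46%, 6.65% and 7.56% of all counts in the 3 libraries at 6720 min, from 3.53% to 3.82% at the end of darkness, and 3.26%, 3.70% and 3.19% in control. The new falls held 3.81%, 5.05% and 4.09% at 6720 min, from 10.4% to 10.9% at the end of darkness, and 9.66%, 8.89% and 9.31% in control. These shares describe libraries that chose the classes and carry no test.

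**Figure D2:**
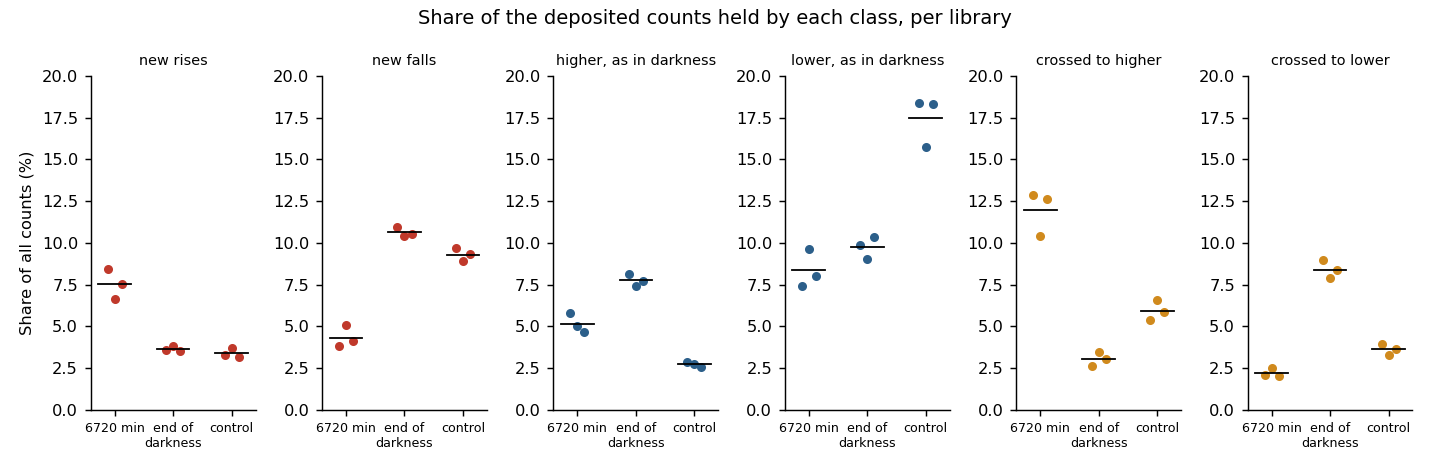
Percent of all deposited counts held by 6 classes in each library at 6720 min, at the end of darkness and in control; points are libraries and lines are means of 3. New rises held 6.65% to 8.46% at 6720 min against 3.19% to 3.70% in control, and the transcripts that were lower both in darkness and at 6720 min held 7.39% to 9.61% at 6720 min against 15.7% to 18.4% in control.

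To measure the classes without the values that chose them, they were chosen again with the libraries of 2 replicate numbers, and their median log2 CPM relative to control was read in the libraries of the third number, for each number in turn. New rises (1460 to 2585 transcripts in the 3 rotations) then stood 1.53, 0.69 and 1.34 above control at 6720 min in held-out replicates 1, 2 and 3. New falls (1497 to 2614) stood at -1.29, -0.56 and -1.10. On average 95.8 ± 2.81% of new rises were above, and 3.49 ± 2.32% of new falls were above, the held-out control library. All 3 rotations thus gave the same side, with the smallest value in held-out replicate 2 for both. At the end of darkness the same transcripts were at -0.15 ± 0.04 for rises and 0.0028 ± 0.12 for falls (log2, SD, n = 3 rotations), near control as the rule asked of the choosing libraries.

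The mean of the new differences was small at 16 h and larger at each later harvest, but the step after 64 h was not seen in all rotations. After 16 h the held-out median of new rises was 0.19 ± 0.05 above control, after 40 h 0.47 ± 0.02, after 64 h 0.87 ± 0.21 and after 6720 min 1.19 ± 0.44 (log2, SD, n = 3 rotations). For new falls the values at those times were -0.18 ± 0.09, -0.39 ± 0.08, -0.71 ± 0.14 and -0.98 ± 0.38. In held-out replicate 2 new rises were at 0.64 after 64 h and 0.69 after 6720 min, and new falls at -0.55 and -0.56, so the further growth rested on replicates 1 and 3. The value after 16 h depended on the scaling, with 0.31 for new rises and -0.036 for new falls when libraries were scaled by size alone. These 4 harvests lie whole days apart and share a clock time. At 8 h, another clock time, new rises were at -0.11 ± 0.32 and new falls at 0.11 ± 0.21, with held-out libraries on both sides of control. The share of new rises above control was 64 ± 4.73% after 16 h, 81.5 ± 3.10% after 40 h and 93.9 ± 2.00% after 64 h.

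**Figure D3:**
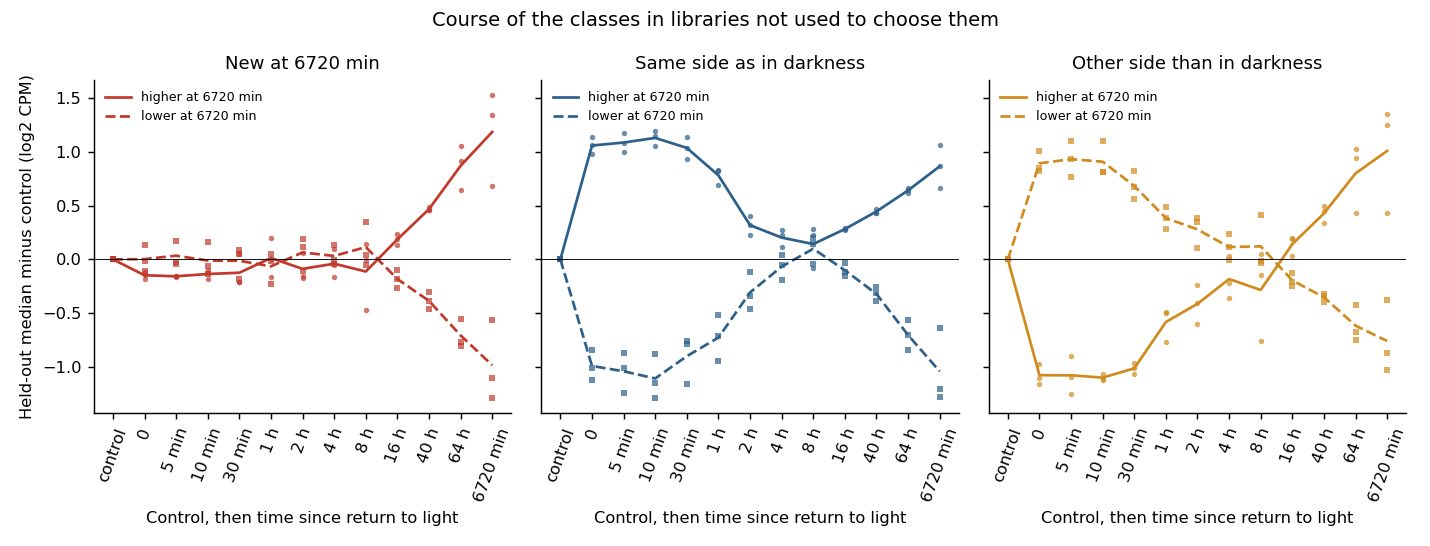
Median log2 CPM of each class relative to the control library of the same replicate number, in libraries not used to choose the class, for control and then for 0 min to 6720 min of light; points are the 3 rotations, lines their mean, and harvests are evenly spaced. New rises lie 0.19 above control at 16 h and 1.19 at 6720 min, with medians slightly below control at the end of darkness (-0.15). Of the classes on the same side as in darkness, the higher one has its lowest mean in light at 8 h (0.14) and is at 0.86 at 6720 min. That low at 8 h rests on held-out replicate 2 (-0.08). The lower class is at 0.099 at 8 h and -1.04 at 6720 min.

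The transcripts that differed from control on the same side in darkness and at 6720 min had, as classes, smaller median differences in between. Those higher at both times (1361 to 2584 in the rotations) had a held-out median 1.06 ± 0.08 above control at the end of darkness. It came down to 0.14 ± 0.20 after 8 h of light and was 0.28 ± 0.01 after 16 h, 0.45 ± 0.02 after 40 h, 0.64 ± 0.02 after 64 h and 0.86 ± 0.20 after 6720 min (log2, SD, n = 3). The low at 8 h rested on held-out replicate 2, with 0.286, -0.084 and 0.225 in replicates 1 to 3. Replicate 1 was lowest at 2 h (0.231) and replicate 3 at 4 h (0.224). Those lower at both times (1696 to 3811) stood at -0.99 ± 0.14 at the end of darkness and 0.099 ± 0.13 after 8 h. Later medians were -0.10 ± 0.06 after 16 h, -0.32 ± 0.07 after 40 h, -0.71 ± 0.14 after 64 h and -1.04 ± 0.35 after 6720 min. Of the lower transcripts 1.40 ± 0.70% were above the held-out control library at the end of darkness, 39.7 ± 6.48% after 16 h and 2.82 ± 1.53% after 6720 min. When libraries were scaled by their size alone, the values after 16 h were 0.41 for the class higher at both times and 0.018 for the class lower at both, so the side of control on which the lower class lay at that time depends on the scaling. Of the transcripts higher at both times 58.7 ± 12.1% were above the held-out control library after 8 h and 74.7 ± 1.78% after 16 h, and the median after 16 h was above control in all 3 rotations. The group among them that lay higher at 6720 min than in darkness had medians of 0.53 ± 0.63 after 8 h and 0.61 ± 0.19 after 16 h. A class median covers members on both sides, so it does not show for any 1 transcript whether its dark difference remained, and the transcripts are called here by the side they took.

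Within these transcripts, 6720 min was compared directly with the end of darkness. Among those higher at both times 2161 did not differ between the 2 harvests by the test, 832 were lower at 6720 min than in darkness and 240 were higher still. Among those lower at both times the numbers were 2386 not called, 580 nearer to control at 6720 min and 563 farther from it. A missed call does not show equal levels. The median difference of 6720 min from the end of darkness in the uncalled groups was -0.05 and -0.03 (log2). The groups that lay farther from control than in darkness had, at 6720 min, held-out medians of 1.64 ± 0.49 and -1.73 ± 0.59 (n = 3 rotations). Without control replicate 3 the count of transcripts higher at both times dropped to 2046, and without replicate 1 or replicate 3 of all groups it was 1361 and 1782. The count of transcripts lower at both times was then 1789 and 1696, and it was 2290 when libraries were scaled by their size alone.

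Transcripts that crossed the control level lay on the other side of it in darkness, as the rule asked of the choosing libraries. From 16 h on their mean medians moved the same way as those of the new classes. Those that crossed to higher (486 to 1390 in the rotations) had a median of -1.08 ± 0.10 in darkness relative to control, 0.14 ± 0.09 at 16 h and 1.01 ± 0.51 at 6720 min, with 1.35, 0.43 and 1.25 in held-out replicates 1 to 3 (log2, SD, n = 3). Those that crossed to lower (399 to 990) were at 0.89 ± 0.10, -0.20 ± 0.06 and -0.76 ± 0.34 at these times, with -1.03, -0.38 and -0.87 in the 3 held-out replicates at 6720 min. By library size alone the values after 16 h were 0.28 for the class that crossed to higher and -0.068 for the class that crossed to lower. In held-out replicate 2 neither class lay farther from control after 6720 min (0.43 and -0.38) than after 64 h (0.43 and -0.42). The class that crossed to higher held 12.9%, 10.4% and 12.6% of all counts at 6720 min, from 2.61% to 3.45% at the end of darkness, and 5.37%, 6.59% and 5.84% in control, the largest share of the 6 classes drawn at 6720 min. Its count of 1377 was 910 without control replicate 1 and 894 without control replicate 3, and it was 486 and 488 without replicate 1 or replicate 3 of all groups. The count of 1126 was 399 and 444 in the same pair of fits.

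The comparison of 64 h with 16 h, which share a clock time, sets group means against each other that hold no library from 6720 min, control or the end of darkness. The filter, the scaling and the estimate of spread were still those of the fit to all 39 libraries. Over all tested transcripts the test called 5705 (13.5%), of which 2609 (6.19%) were higher at 64 h than at 16 h and 3096 (7.34%) lower (edgeR, adjusted p below 0.05). Of the 2648 new rises 856 (32.3%) were higher at 64 h and 0 were lower. Of the 2322 new falls 804 (34.6%) were lower and 3 higher. The transcripts that had been on the same side in darkness moved the same way. Of the 3529 lower at both times 1362 (38.6%) were lower at 64 h than at 16 h and 5 were higher, and of the 3233 higher at both times 543 (16.8%) were higher and 5 lower. Of the 1377 that crossed to higher 528 (38.3%) rose over this interval, and of the 1126 that crossed to lower 337 (29.9%) fell. The shares were highest where 6720 min lay beyond the dark level, with 120 of 240 (50%) higher and 419 of 563 (74.4%) lower. Among the 26308 transcripts not called at 6720 min the shares were 2.28% higher and 1.73% lower. The share called at 6720 min was larger among abundant transcripts, as given above, and the part of abundance in these shares was not tested.

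**Figure D4:**
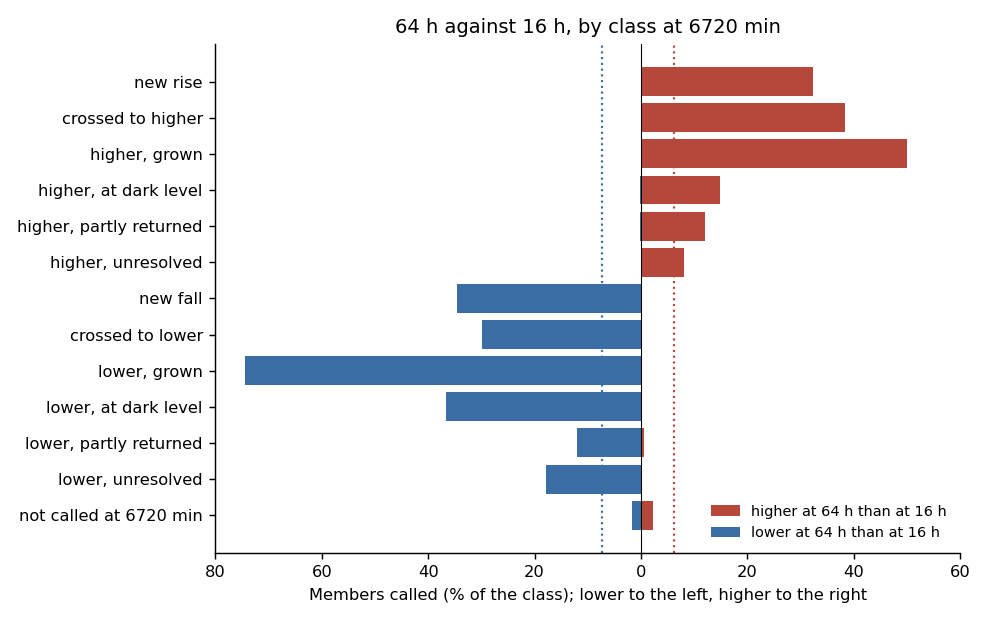
Percent of each class called higher (right) or lower (left) at 64 h than at 16 h, with dotted lines at the shares over all tested transcripts (6.19% and 7.34%). The bars of classes that were higher at 6720 min point right and those of classes that were lower at 6720 min point left, up to 50% and 74.4% in the classes that had moved beyond their dark level.

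The single steps of a day gave few calls, with 11 transcripts at 40 h against 16 h (0.0261% of those tested) and 18 at 64 h against 40 h (0.0427%, edgeR). With the replicate number as a block the count for 64 h against 40 h was 971, and DESeq2 gave 34 for the earlier and 255 for the later step. The count for 64 h against 16 h also rested on the libraries. It was 287 without replicate 1 of all groups, 412 without replicate 3 and 5610 without replicate 2. In these smaller fits 4.52%, 4.68% and 34.6% of the new rises, chosen in the same fit, were higher at 64 h without replicates 1, 3 and 2, against 0.37%, 0.585% and 6.18% of all tested transcripts, and 0 new rises were lower in each. Under scaling by size alone, 1658 transcripts were higher and 4359 lower at 64 h, since that scaling moved the median of all transcripts to -0.11 in place of 0.013 (log2). Of the new rises 27.9% then were higher and of the new falls 50% were lower, against 3.93% higher and 10.3% lower among all tested transcripts.

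By distance over all tested transcripts, 6720 min was nearest to 64 h. The median absolute difference between group means of log2 CPM was 0.185 from 64 h, 0.304 from 40 h, 0.384 from 16 h, 0.432 from control and 0.57 from the end of darkness. The median spread (SD) within a group was 0.229 at 6720 min and 0.249 in control on the same scale. The transcripts of a class were not spread evenly through the deposited list. For 47.1% of new rises and 43.3% of new falls a transcript next to it among the tested ones in that list belonged to the same class, against 11% and 10.6% for transcripts 50 places away. Tobacco carries near-identical copies of many genes from its parent species, and reads shared between copies can be counted in ways the tables do not show, so counts of transcripts are not counts of independent genes.

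Transcript 698561027 had the largest new rise under the naming rule. It stood at 134.4, 75.8 and 102.4 CPM at 6720 min (mean 104.2 ± 29.3), 6.84, 6.37 and 5.63 CPM when darkness ended, and 4.97, 4.24 and 4.19 CPM in control (mean 4.46 ± 0.44, SD, n = 3). All 3 libraries at 6720 min were far above all 6 others, and 75.8 CPM in replicate 2 was the lowest of them. The log2 difference from control was 4.54 (SE 0.24, adjusted p = 1.61e-14, edgeR), and that of darkness from control 0.49 (SE 0.23, adjusted p = 0.0759). Its level was 12.2 ± 2.21 CPM at 2 h, 32.5 ± 4.2 CPM at 16 h and 70.5 ± 1.59 CPM at 64 h, and 64 h was above 16 h by 1.12 (log2, SE 0.21, adjusted p = 0.000744, edgeR). Its mean at 2 h was already above the control level, while the held-out median of its class at 2 h was -0.09 relative to control (log2).

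Transcript 698505637 had the largest new fall. Levels were 1.86, 2.01 and 1.12 CPM at 6720 min, 57.2, 24.8 and 44.8 CPM when darkness ended, and 57.7, 22.0 and 67.9 CPM in control. The libraries at 6720 min lay below all those of darkness and control, which overlapped each other. The log2 difference from control was -4.89 (SE 0.70, adjusted p = 2.4e-06, edgeR). Its course was not steady, with 273.6 ± 88.0 CPM at 2 h, 14.7 ± 4.68 CPM at 16 h and 2.21 ± 0.43 CPM at 64 h. At 8 h the 3 libraries were far apart, at 45.5, 346.4 and 66.2 CPM. The fall between 16 h and 64 h was -2.73 (log2, SE 0.66, adjusted p = 0.00568, edgeR).

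Transcript 698488390 had the largest rise among those higher in darkness too. It stood at 207.8, 112.5 and 226.2 CPM at 6720 min, 137.0, 172.2 and 163.1 CPM when darkness ended, and 5.06, 5.76 and 5.67 CPM in control. The log2 difference from control was 5.05 at 6720 min (SE 0.56, adjusted p = 6.83e-08, edgeR), and 6720 min was not told apart from darkness (log2 0.21, SE 0.47, adjusted p = 0.733). In between the transcript came down to 8.52 ± 2.60 CPM at 2 h and stood at 61 ± 16.6 CPM at 16 h and 128.4 ± 31.8 CPM at 64 h (SD, n = 3). Its high level at 6720 min was thus reached again after a low at 2 h, although the step between 16 h and 64 h did not pass the test (log2 1.07, SE 0.47, adjusted p = 0.133, edgeR).

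Transcript 698536791, the largest fall among those lower in darkness too, owed its place to 1 library. Levels were 1.70, 3.70 and 1.96 CPM at 6720 min, 3.80, 7.77 and 3.66 CPM when darkness ended, and 136.2, 4.58 and 4.03 CPM in control. Only control replicate 1 was high. The log2 difference of -4.29 (SE 0.94, adjusted p = 0.000509, edgeR) became -0.84 (SE 0.70, adjusted p = 0.382) without control replicate 1 and -0.62 (SE 0.75, adjusted p = 0.611) without replicate 1 of all groups. The other 9 of the 10 largest such falls kept their call when each library at 6720 min or in control was left out, as did the 10 largest of each other kind. These 10 ran from 3.48 to 4.54 for new rises, from -4.89 to -3.33 for new falls and from 3.88 to 5.05 for rises shared with darkness (log2). Between 16 h and 64 h 10 of the 10 new rises rose by the test, 5 of the 10 new falls and 7 of the 10 falls shared with darkness fell, and 2 of the 10 rises shared with darkness rose. The shares of their whole classes were 32.3%, 34.6%, 38.6% and 16.8%, and 6.19% of all tested transcripts rose and 7.34% fell. These lists took the largest differences with non-overlapping libraries, which favours kept calls. Of all 15873 calls, 60.0% were kept when single libraries at 6720 min or in control were left out.

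**Figure D5:**
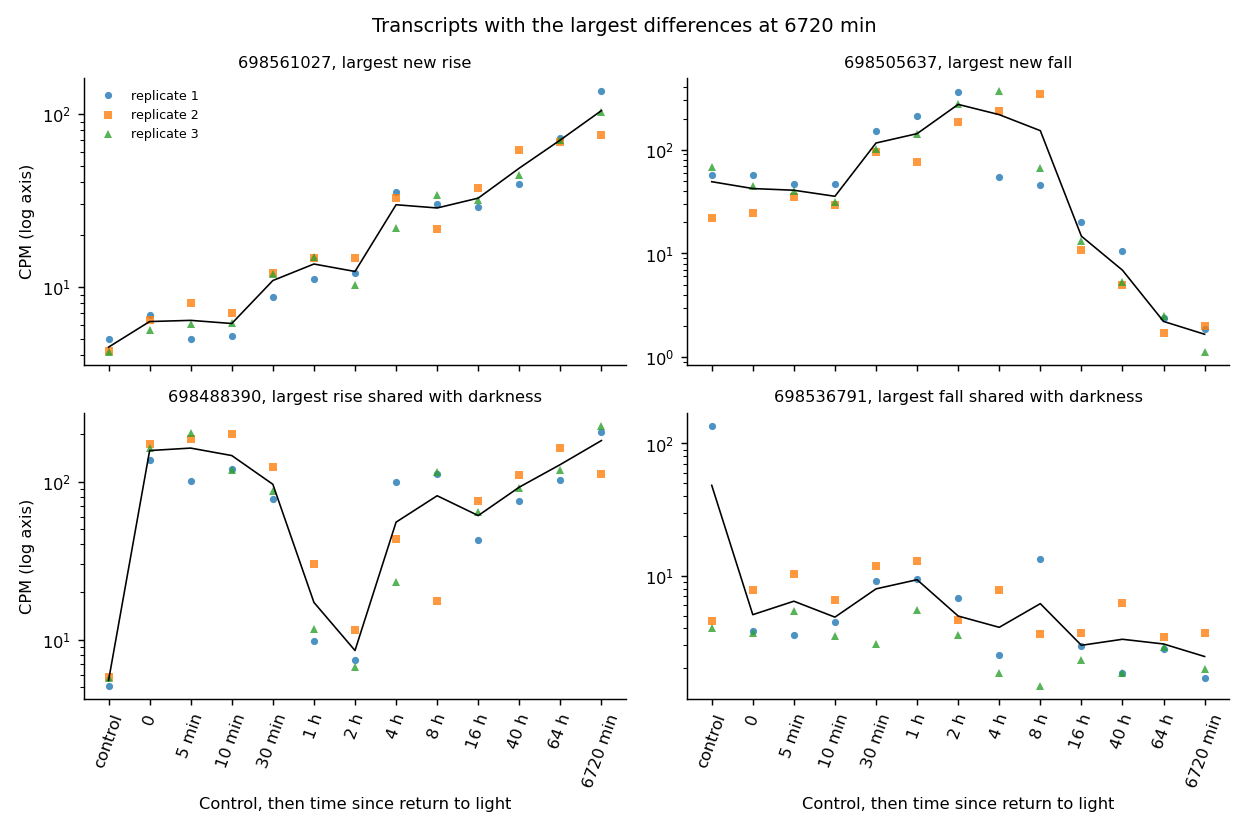
CPM on a log axis of the 4 named transcripts in control and at each time since the return to light, with 1 point per library and a line through the means of 3. Transcript 698561027 climbs to 104.2 CPM at 6720 min, 698505637 peaks at 273.6 CPM at 2 h before it falls to 1.66 CPM, 698488390 dips to 8.52 CPM at 2 h between its high levels, and 698536791 is high in 1 control library (136.2 CPM).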

How the data were processed

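RNA was measured as polyA RNA by single-end RNA sequencing of leaf pools, per the labels' protocols. The authors deposited 1 table of raw whole-number counts per transcript and library, and no normalization is visible in the values. Per the submitters' processing notes, the tools included FastQC 0.10.1, SAMtools 1.0 and BWA 0.70, with no role stated for any. The reference sequences, the counter, the strand setting and the treatment of reads shared between sequences were not stated. The extraction text also describes plants of a different design and was not used.

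The fits used edgeR 4.0.16 under R 4.3.3. Its filterByExpr function, with a count minimum of 10 and a total of at least 15, kept 42181 transcripts holding 99.9% of counts. With TMM scaling, glmQLFit was fitted to all 39 libraries with 1 mean for each of 13 groups, and contrasts were tested with glmQLFTest at a Benjamini-Hochberg adjusted p below 0.05. The SE printed is the absolute log2 difference divided by the square root of F. CPM use TMM scaling, and log2 CPM a prior count of 1. The main edgeR fit and its classes were run on simulated counts with new rises, new falls, rises shared with darkness and crossings to higher. The other settings and kinds of change were not run on simulated counts. No 2 libraries held the same counts. Labels give replicates as separate pools. Alternatives were DESeq2 1.42.0, other scalings and filters, a replicate block, the 9 libraries alone, and leaving out replicates or single libraries.

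Same-numbered libraries did not deviate together between 6720 min and control (correlations -0.013, -0.049 and -0.063). They hardly did between 6720 min and the end of darkness (0.025, 0.018 and 0.065), where replicates 1 and 3 still correlated best with their own number. Between the end of darkness and control they did so for 2 of the 3 numbers (0.12, 0.35 and -0.036). They did between 40 h and 16 h (0.14, 0.35 and 0.24) and between 64 h and 40 h (0.10, 0.28 and 0.18), and less evenly between 64 h and 16 h (0.056, 0.18 and 0.19). Between 40 h and 16 h replicate 1 did not correlate best with its own number.

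The comparison, the classes and the lists were chosen with earlier results of these data known. The naming rule took, among called transcripts with non-overlapping libraries, at least 10 CPM in the higher and 1 CPM in the lower group, the largest new rise and fall (dark level within 0.5 log2 of control) and the largest rise and fall shared with darkness. Lists of gene names and markers could not be used without names.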

Additional observations from a re-analysis of the deposited data

Results flagged for a closer look

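The direct contrasts brought up differences between times under the same comparison with control. For 21022 transcripts the difference from control was not the same at 6720 min and at the end of darkness, tested as 6720 min against the end of darkness. For 5705 transcripts it was not the same at 64 h and at 16 h, tested as 64 h against 16 h (edgeR, adjusted p below 0.05). Groups of 3 libraries were not tested for outlying samples.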

How the results depend on the processing

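Counts of the classes and of changed transcripts stayed within 1.5 times under DESeq2 size factors, the DESeq2 test, no filter or a stricter filter on low counts, the replicate block and a fit of the 9 libraries alone, apart from the small counts of single-day steps. For 64 h against 40 h the count was 0 with scaling by library size only, 255 with the DESeq2 test and 971 with the replicate block, and for 40 h against 16 h it was 34 with the DESeq2 test; the cause was not tested. Transcripts lower both in darkness and at 6720 min numbered 2290 with library size only, of which 2247 were among the 3529. Members of the classes thus changed with this scaling. Of the 2648 new rises 1835 (69.3%) kept their class, and of the 2322 new falls 1750 (75.4%) did. Of the 2602 new falls under this scaling, 67.3% were new falls in the main fit. The share kept ran from 63.7% of transcripts lower at both times to 93.0% of those higher at both. New rises numbered 2219 and new falls 2407 with the dark level judged by its distance from control, and 1952 and 1817 at an adjusted p below 0.01. With the replicate block 17701 transcripts were called at 6720 min, 2840 as new rises, 2380 as new falls, 1689 as crossed to higher and 1349 as crossed to lower, and 22587 at the end of darkness against control. For 6720 min against the end of darkness same-numbered libraries correlated weakly (0.025, 0.018 and 0.065), although replicates 1 and 3 correlated best with their own number.

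With replicates or single libraries left out, the count at 6720 min ran from 8288 to 15961 and that of at least 2-fold differences from 4779 to 8290. New rises ran from 1460 to 2756, new falls from 1497 to 2614, transcripts higher at both times from 1361 to 3035 and lower at both from 1696 to 3811, crossed to higher from 486 to 1390 and to lower from 399 to 1124. Counts were 287 to 5610 for 64 h against 16 h, 0 to 3 for 40 h against 16 h, and 0 to 1231 for 64 h against 40 h. Leaving out replicate 2 of all groups gave 15698 calls at 6720 min, 8290 of at least 2-fold, and 1231 for 64 h against 40 h, and the cause of these movements was not tested. Of the named transcripts, 698536791 alone lost its call (its log2 difference ran from -5.31 to -0.62), and it did so without control replicate 1 and without replicate 1 of all groups. Held-out class levels at 6720 min moved by less than 1 SD with a prior count of 5 or library size only.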
